A study of Mus musculus with 6 samples.

Results

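Amino acid transporters carry amino acids across the plasma membrane and out of the lysosome. The genes described here are those that GEO's probe annotation names by a symbol of the solute carrier families Slc1, Slc3, Slc6, Slc7, Slc36, Slc38 or Slc43, which gave 63 of the 18193 genes measured. Where a gene had several probe sets, the brightest on average over the 6 arrays stood for it, and the 63 genes had 125 probe sets in all. The symbol also took in 3 entries that lie opposite a transporter gene and are not transporters (Slc36a1os, Slc6a19os and Slc7a6os). Slc38a8 and Slc38a11 were not analysed here, since no probe set named either of them alone.

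Mouse bone marrow was profiled on 6 Affymetrix arrays of the Mouse430_2 type, 2 in each of 3 groups. MN1VP16 cells were GFP-positive marrow cells carrying the vector pSF91-MN1VP16-IRES-GFP, and MN1 cells were GFP-positive marrow cells carrying pSF91-MN1-IRES-GFP. MN1 is a transcriptional cofactor that causes myeloid leukaemia in mice when overexpressed, and VP16 is a viral transcriptional activator, and the labels describe the fusion construct no further. For both groups, C57BL/6J marrow from donors given 5-fluorouracil (150 mg/kg, 4 days) was cultured for 48 hours with interleukin 6, interleukin 3 and stem cell factor. It was then transduced by coculture with producer cells, transplanted into lethally irradiated syngeneic mice and sorted 4 weeks later. Gr1Mac cells were marrow cells sorted for Gr1 and CD11b, markers of granulocytes and monocytes. The labels leave unsaid whether the Gr1Mac mice were transplanted, how old any mouse was, and whether a group's arrays stem from different mice. No group carried an empty vector, so MN1VP16 or MN1 against Gr1Mac compares construct, sort and cell type together.

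Values are the authors' log2 RMA values, and array medians lay between 5.36 and 5.43 log2 units. Itgam, which encodes CD11b, lay at 9.44 and 8.88 log2 units in MN1VP16 and 7.67 and 6.95 in MN1, against 10.95 and 10.92 in Gr1Mac. The Mn1 probe set read 4.92 and 4.00 log2 units in MN1VP16 and 3.92 and 4.51 in MN1, against 3.63 and 4.21 in Gr1Mac, and was called in no comparison. It showed no rise with either vector and gives no check of the labels. The arrays also differed in sex pattern, with Y-linked Kdm5d high in both MN1VP16 arrays and in Gr1Mac array 2, and Xist high in both MN1 arrays and in Gr1Mac array 1. Sex pattern and construct therefore cannot be told apart between MN1VP16 and MN1. On the arrays high in Kdm5d, Xist read up to 5.84 log2 units, which serves below as a guide to background. A group mean at or under it can be background alone, and a fold against such a group is given as "at least", computed from 5.84 or the array's own higher reading. For 30 of the 63 genes, the means of all 3 groups lay at or under this level. Levels of different genes come from different probes and are not compared.

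Most transporters of this set work as exchangers or as symporters driven by sodium or protons. Slc3a2 (CD98) is the heavy chain that holds several Slc7 light chains at the cell surface, among them Slc7a5 (LAT1), which imports leucine and other large neutral amino acids in exchange for glutamine. Slc1a5 and the Slc38 transporters supply glutamine, Slc7a1 supplies arginine and lysine, and Slc38a9 senses arginine at the lysosome for the growth kinase mTORC1. Cells that divide quickly are known for high levels of several of these genes.

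Compared with Gr1Mac, MN1 cells had higher Slc38a5, Slc43a1, Slc7a5, Slc7a1, Slc38a1, Slc1a5 and Slc3a2, and lower Slc36a4, Slc6a12, Slc6a13, Slc43a2 and Slc7a11. With limma fitted across all genes and a Benjamini-Hochberg adjusted p under 0.05, 12 of the 63 were called higher in MN1 and 8 lower, which is 19.0% and 12.7%, beside 17.3% and 12.0% of all genes (29.3% in either direction). In MN1VP16 against Gr1Mac, 3 were called higher (Slc7a5, Slc38a1 and Slc7a1) and 2 lower (Slc6a12 and Slc7a11), which is 7.94% in either direction beside 5.77% of all genes (3.66% higher and 2.11% lower). In MN1VP16 against MN1, 1 was called higher (Slc36a4) and 2 lower (Slc38a5 and Slc43a1), 4.76% beside 3.85% of all genes (1.15% higher and 2.70% lower). The shares were thus near those of all genes, and the set as a whole did not stand out by its number of calls. The median difference of the 63 genes was -0.13 log2 units in MN1 minus Gr1Mac (-0.06 over all genes), 0.03 in MN1VP16 minus Gr1Mac (0.00) and 0.08 in MN1VP16 minus MN1 (0.03). Every call fell on the 20 genes called in MN1 minus Gr1Mac (31.7%, beside 29.3% of all genes there). No call was made in any comparison for the other 43 of the 63 genes.

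**Figure D1:**
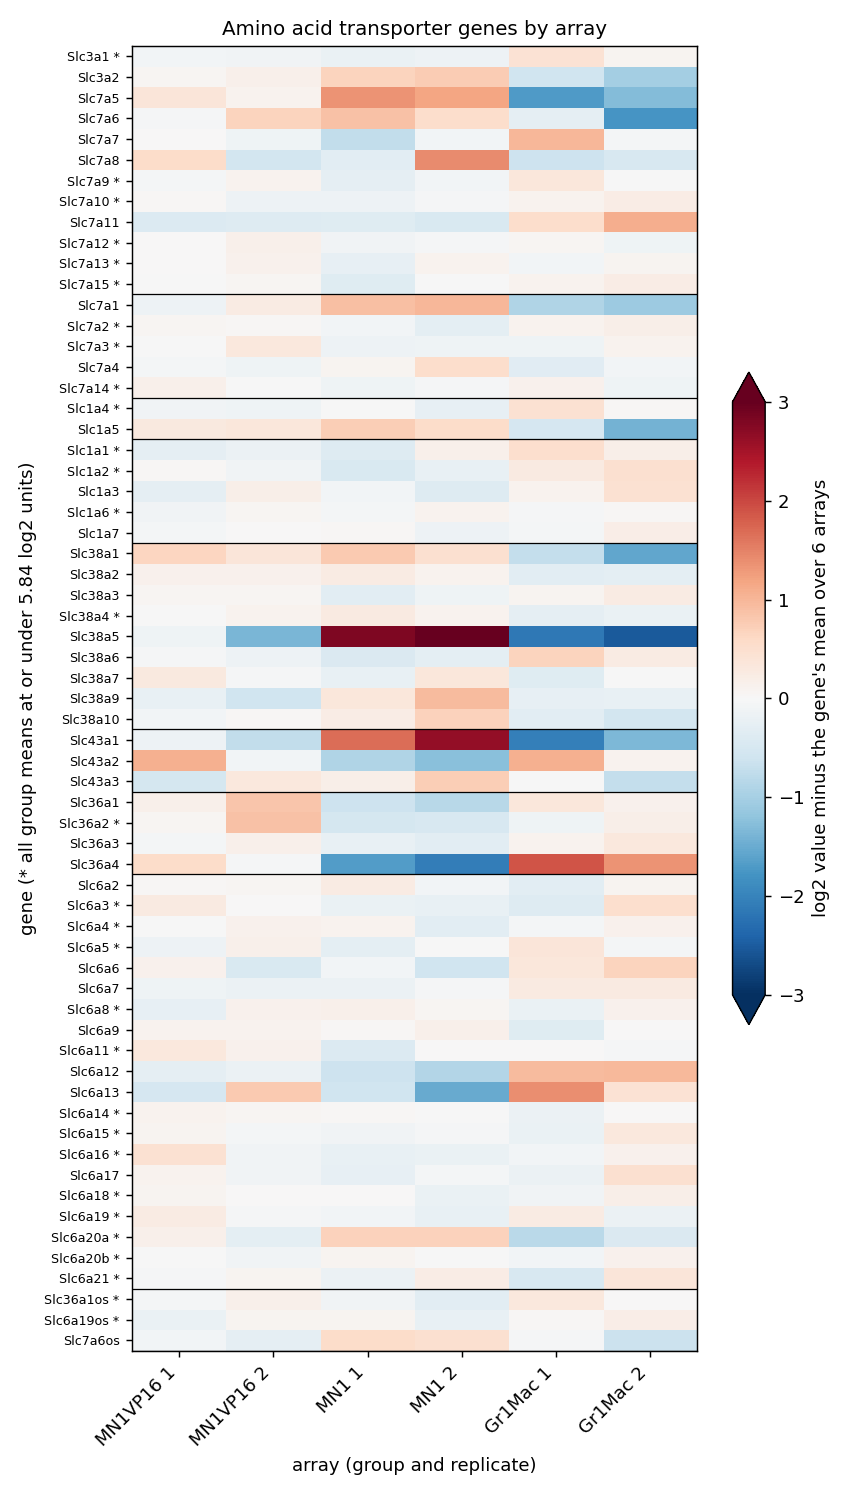
Each row is 1 of the 63 genes and each column 1 array, coloured by the log2 value minus that gene's mean over the 6 arrays; lines separate the transporter classes, and an asterisk marks the 30 genes whose group means all lay at or under 5.84 log2 units. Slc38a5 and Slc43a1 are high in MN1, Slc36a4 is low in MN1, and most Slc6 genes hardly vary.

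Slc38a5, Slc43a1 and Slc36a4 were the genes called between MN1VP16 and MN1, and each was also called between MN1 and Gr1Mac. Slc38a5 (SNAT5) is a plasma membrane transporter of glutamine, asparagine, histidine, serine and glycine. It lay at 7.68 and 6.42 log2 units in MN1VP16 and at 10.61 and 11.16 in MN1, against 5.67 and 5.27 in Gr1Mac. The groups did not overlap, with MN1 far above the other groups and the MN1VP16 arrays over 1 unit apart. Slc38a5 was at least 33.2-fold higher in MN1 than in Gr1Mac (limma adjusted p = 0.00134) and 14.3-fold lower in MN1VP16 than in MN1 (95% interval 6.83 to 29.9, limma adjusted p = 0.0199). Its difference of 1.58 ± 0.44 (SE) log2 units in MN1VP16 minus Gr1Mac was not called (limma adjusted p = 0.0927). Slc38a5 lies on the X chromosome, and sex pattern and construct cannot be told apart between MN1VP16 and MN1. Its call in MN1VP16 minus MN1 was lost with the sex pattern as a block and without MN1 array 2. With that block, the calls of Slc43a1 and Slc36a4 in MN1VP16 minus MN1 were lost too.

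Slc43a1 (LAT3), a facilitator that carries leucine and other large neutral amino acids without exchange, had the same order of groups. Its values were 7.19 and 6.61 log2 units in MN1VP16 and 9.01 and 9.98 in MN1, against 5.30 and 5.99 in Gr1Mac. The 3 groups again did not overlap. It was at least 12.0-fold higher in MN1 than in Gr1Mac (limma adjusted p = 0.00217, lost at 0.05 with the split in bright control features as a block) and 6.07-fold lower in MN1VP16 than in MN1 (95% interval 3.04 to 12.1, limma adjusted p = 0.0341), and the difference of 1.26 log2 units in MN1VP16 minus Gr1Mac was not called (limma adjusted p = 0.133).

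Slc36a4 (PAT4), a transporter of proline and tryptophan, ran the other way. It lay at 6.97 and 6.37 log2 units in MN1VP16 and at 4.75 and 4.34 in MN1, against 8.30 and 7.75 in Gr1Mac. All 3 groups were separate, with MN1 under the background guide. It was at least 4.55-fold lower in MN1 than in Gr1Mac (limma adjusted p = 0.00141) and at least 1.78-fold higher in MN1VP16 than in MN1 (limma adjusted p = 0.0286). The difference of -1.35 log2 units in MN1VP16 minus Gr1Mac was not called (limma adjusted p = 0.0574).

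The proximal promoters of these genes are shown because they were called between MN1VP16 and MN1, and that of Slc7a11 because it carries the amino acid response motif. They are the 100 bases before the start site, from RefSeq on GRCm38.p6, written 5′ to 3′ on the gene's own strand. Capitals mark an E-box (CACGTG, the core bound by Myc and its relatives, the same on both strands) or the core of the amino acid response element (TGATGNAA on either strand, bound by Atf4 with a C/EBP partner). The motifs searched do not overlap in these stretches.
Slc38a5 (chrX:8271281-8271380, plus strand): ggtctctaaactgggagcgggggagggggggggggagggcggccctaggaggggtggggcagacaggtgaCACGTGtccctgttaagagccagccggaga
Slc43a1 (chr2:84840223-84840322, plus strand): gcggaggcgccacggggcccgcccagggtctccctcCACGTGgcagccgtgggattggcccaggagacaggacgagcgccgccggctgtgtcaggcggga
Slc36a4 (chr9:15709638-15709737, plus strand): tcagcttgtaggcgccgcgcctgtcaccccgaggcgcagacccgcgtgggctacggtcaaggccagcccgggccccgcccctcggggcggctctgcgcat
Slc7a11 (chr3:50443614-50443713, minus strand): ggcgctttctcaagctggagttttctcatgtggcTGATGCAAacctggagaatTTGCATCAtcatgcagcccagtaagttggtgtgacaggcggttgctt

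Of the 63 genes, 46 had a promoter in the RefSeq table (250 bases before to 50 after a start site). An E-box was found for 9 of the 46, beside 8.09% of the 27025 genes in the table. These were Slc38a5 and Slc43a1, called higher in MN1 than in Gr1Mac, Slc36a1, called lower, and Slc7a14, Slc1a7, Slc6a16, Slc38a7, Slc1a6 and Slc6a3, called in no comparison. The response element core was found for 4 of the 46 (Slc7a11, Slc7a7, Slc1a4 and Slc6a21), beside 4.51% of all genes, and Slc7a11 held a copy on each strand. Of these 4, Slc7a11 was the gene with a call. A match describes the letters and not a site in use. Myc itself lay at 9.22 and 8.86 log2 units in MN1VP16 and at 11.17 and 10.91 in MN1, against 7.07 and 6.23 in Gr1Mac, and Atf4 at 11.19 and 11.80 in MN1VP16 and 11.12 and 11.08 in MN1, against 11.46 and 11.37 in Gr1Mac. The groups were fully separate for Myc (limma adjusted p = 0.0334 in MN1VP16 minus MN1), while Atf4 was called in no comparison.

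Markers of other cell types moved with these 3 genes. The mean over 11 measured erythroid markers was 9.02 and 8.14 log2 units in MN1VP16 and 10.59 and 11.21 in MN1, against 7.04 and 6.81 in Gr1Mac, which is the order of the arrays for Slc38a5. The means of the stem and progenitor markers and of the mast cell, basophil or eosinophil markers had that same order. Of the 11 erythroid markers, 9 were called higher in MN1 than in Gr1Mac (beside 17.3% of all genes). In MN1VP16, 5 were called higher than in Gr1Mac (3.66% of all genes) and 7 lower than in MN1 (2.70%). The exceptions in MN1 against Gr1Mac were Alas2 and Hba-a1, which were not called. Alas2 lay at 8.85 and 7.87 log2 units in MN1VP16 and 9.11 and 10.39 in MN1, against 10.98 and 9.72 in Gr1Mac. Hba-a1 was under the background guide on every array. Klf1, the defining erythroid transcription factor, lay at 9.68 and 8.46 log2 units in MN1VP16 and 12.11 and 12.44 in MN1, against 5.90 and 6.53 in Gr1Mac. The mean over 10 monocyte and macrophage markers was 10.97 and 9.88 log2 units in MN1VP16 and 8.19 and 8.11 in MN1, against 10.69 and 10.04 in Gr1Mac. As with Slc36a4, the lowest of these were the MN1 arrays, but here MN1VP16 and Gr1Mac overlapped, as they did not for Slc36a4. The mean over 11 neutrophil markers had the group order of Slc36a4 without overlap. It was 13.20 and 13.20 log2 units in MN1VP16 and 12.87 and 12.10 in MN1, against 14.02 and 14.23 in Gr1Mac. Of the 10 monocyte and macrophage markers, 8 were called lower in MN1 than in Gr1Mac (12.0% of all genes) and 1 higher (Cd163). In MN1VP16, 6 of them were called higher than in MN1 (1.15% of all genes). The part of these cell types in the transporter differences was not tested, and in sorted bulk cells a change in the share of a cell type and a change in RNA per cell cannot be told apart.

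**Figure D2:**
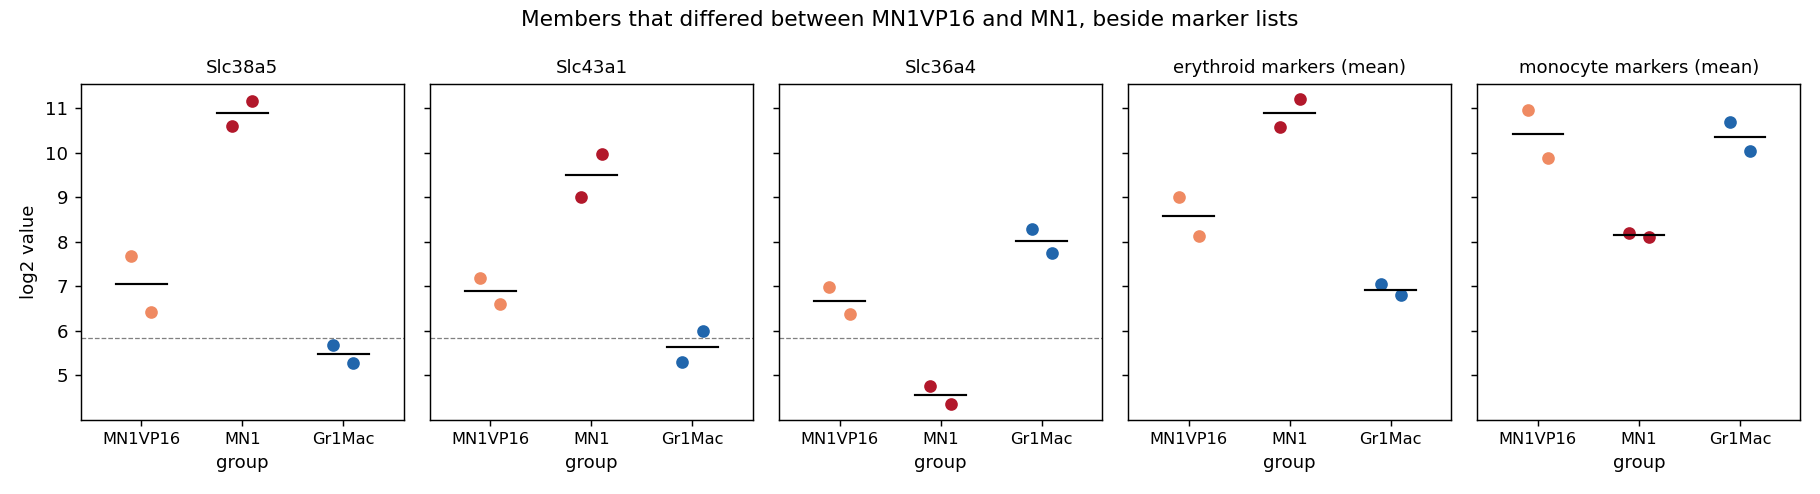
Log2 values of Slc38a5, Slc43a1 and Slc36a4 and means of the erythroid and monocyte marker lists, by group; points are arrays, bars are group means, and the dashed line is the background guide of 5.84 log2 units. Slc38a5, Slc43a1 and the erythroid mean are highest in MN1, and Slc36a4 and the monocyte mean are lowest there.

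Among the heavy and light chains of the heteromeric transporters, the Slc3a2-Slc7a5 pair rose in MN1. Slc3a2 lay at 10.13 and 10.23 log2 units in MN1VP16 and at 10.74 and 10.84 in MN1, against 9.47 and 9.05 in Gr1Mac. It was 2.89-fold higher in MN1 than in Gr1Mac (95% interval 2.08 to 4.01, limma adjusted p = 0.00340), a call lost with the split in bright control features as a block (limma adjusted p = 0.0577). MN1VP16 stood between them without overlap, 0.92 ± 0.19 (SE) log2 units above Gr1Mac, just short of a call (limma adjusted p = 0.0516).

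Slc7a5 lay at 8.0 and 7.75 log2 units in MN1VP16 and at 8.99 and 8.84 in MN1, against 5.94 and 6.33 in Gr1Mac. Again no groups overlapped. It was 6.86-fold higher in MN1 than in Gr1Mac (95% interval 4.89 to 9.64, limma adjusted p = 0.00117) and 3.35-fold higher in MN1VP16 than in Gr1Mac (2.38 to 4.70, limma adjusted p = 0.0157). In MN1VP16 minus MN1 the difference was -1.04 ± 0.20 (SE), not called at an adjusted p of 0.0519 by limma. The call in MN1VP16 was lost without Gr1Mac array 2 (limma adjusted p = 0.0607).

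The remaining light chains of Slc3a2 did not follow a single direction. Slc7a6 (y+LAT2), which exports arginine in exchange for neutral amino acids, lay at 6.81 and 7.53 log2 units in MN1VP16 and at 7.74 and 7.38 in MN1, against 6.58 and 5.07 in Gr1Mac. The Gr1Mac arrays were far apart, and the rise in MN1 barely passed (at least 2.55-fold, limma adjusted p = 0.0496) and was lost without any array but Gr1Mac array 1. A further probe set of Slc7a6 read 7.24 and 7.56 log2 units in MN1VP16 and 7.44 and 7.24 in MN1, against 5.68 and 5.12 in Gr1Mac. That probe set was called higher in both (limma adjusted p = 0.0168 for MN1VP16 and 0.00314 for MN1, adjusted over all single-gene probe sets).

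Slc7a11 (xCT), which imports cystine for glutathione in exchange for glutamate, lay at 4.86 and 4.89 log2 units in MN1VP16 and at 4.91 and 4.82 in MN1, against 5.79 and 6.37 in Gr1Mac. Both vector groups lay under the background guide and close together, and Gr1Mac array 1 was just under it too. A further probe set of Slc7a11 was under the guide on every array and was not called. Its limma adjusted p was 0.513 for MN1VP16 and 0.309 for MN1, adjusted over all single-gene probe sets. The values that follow are those of the brighter probe set. Slc7a11 fell in both MN1VP16 and MN1, by at least 1.18-fold (limma adjusted p = 0.0380 for MN1VP16 and 0.00998 for MN1). The MN1 call was lost without MN1 array 2, and the MN1VP16 call without any array but Gr1Mac array 1. Since both vector groups read at background, a difference between them could not be measured.

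Slc7a7 (y+LAT1) was not called, at 7.78 and 7.64 log2 units in MN1VP16 and 7.04 and 7.70 in MN1, against 8.76 and 7.72 in Gr1Mac. Slc7a8 (LAT2) was not called either: MN1 array 2 read 7.32 and MN1 array 1 read 5.60, while MN1VP16 read 6.46 and 5.36 and Gr1Mac 5.29 and 5.43. Slc7a10, the light chain for small neutral amino acids and D-serine, was under the guide in all 3 groups. So were Slc3a1, the heavy chain of the kidney cystine transporter, its partner Slc7a9, and Slc7a12, Slc7a13 and Slc7a15.

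Slc7a1 (CAT1), which imports arginine, lysine and ornithine, lay at 9.84 and 10.24 log2 units in MN1VP16 and at 10.89 and 10.98 in MN1, against 9.10 and 8.91 in Gr1Mac. Every array of a group was apart from those of the others, in the order of Slc3a2 and Slc7a5. It was 3.81-fold higher in MN1 than in Gr1Mac (95% interval 2.74 to 5.30, limma adjusted p = 0.00201) and 2.05-fold higher in MN1VP16 (1.47 to 2.84, limma adjusted p = 0.0403). The MN1VP16 call was narrow and was lost under 12 of 15 alternatives, among them leaving out any single array. Of the other cationic transporters, Slc7a2 and Slc7a3 were under the guide in all groups, as was their relative Slc7a14. Slc7a4 was not called (0.52 log2 units in MN1 minus Gr1Mac, limma adjusted p = 0.119).

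Among glutamine transporters, Slc38a1 and Slc1a5 rose in MN1 and Slc38a1 also in MN1VP16. Slc38a1 (SNAT1), a sodium-driven importer of glutamine and alanine, lay at 10.25 and 9.97 log2 units in MN1VP16 and at 10.40 and 10.08 in MN1, against 8.89 and 8.05 in Gr1Mac. MN1VP16 and MN1 overlapped, and both were above Gr1Mac. The folds against Gr1Mac were 3.11 in MN1VP16 (95% interval 1.85 to 5.24, limma adjusted p = 0.0399) and 3.41 in MN1 (2.03 to 5.73, limma adjusted p = 0.00852). The MN1 call was lost without MN1 array 1, and the MN1VP16 call without any array but Gr1Mac array 1.

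Slc1a5 (ASCT2), an exchanger of glutamine and other neutral amino acids, lay at 9.14 and 9.19 log2 units in MN1VP16 and at 9.59 and 9.40 in MN1, against 8.36 and 7.44 in Gr1Mac. Groups did not overlap, although the Gr1Mac arrays lay well apart. It was 3.02-fold higher in MN1 than in Gr1Mac (95% interval 1.80 to 5.07, limma adjusted p = 0.0120), a call lost without either MN1 array. The difference of 1.26 log2 units in MN1VP16 minus Gr1Mac was not called (limma adjusted p = 0.0700). Its relative Slc1a4 (ASCT1) was under the guide in all groups.

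Slc38a2 (SNAT2), the importer that amino acid starvation induces, lay at 11.20 and 11.18 log2 units in MN1VP16 and at 11.31 and 11.17 in MN1, against 10.73 and 10.76 in Gr1Mac. Gr1Mac lay below both vector groups, but no call was made (0.49 log2 units in MN1 minus Gr1Mac, limma adjusted p = 0.0546). A further bright probe set of Slc38a2 read 9.77 and 9.74 log2 units in MN1, against 9.74 and 9.83 in Gr1Mac. Its difference was -0.03 log2 units (limma adjusted p = 0.9, adjusted over all single-gene probe sets). Slc38a10 was 1.85-fold higher in MN1 than in Gr1Mac (limma adjusted p = 0.0229), with its other probe sets on both sides of 0, and Slc38a6 was 1.78-fold lower (limma adjusted p = 0.0245). The Slc38a10 call was lost without MN1 array 2 or Gr1Mac array 2, and the Slc38a6 call without either MN1 array or Gr1Mac array 1. Slc38a3 and Slc38a4 were not called.

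**Figure D3:**
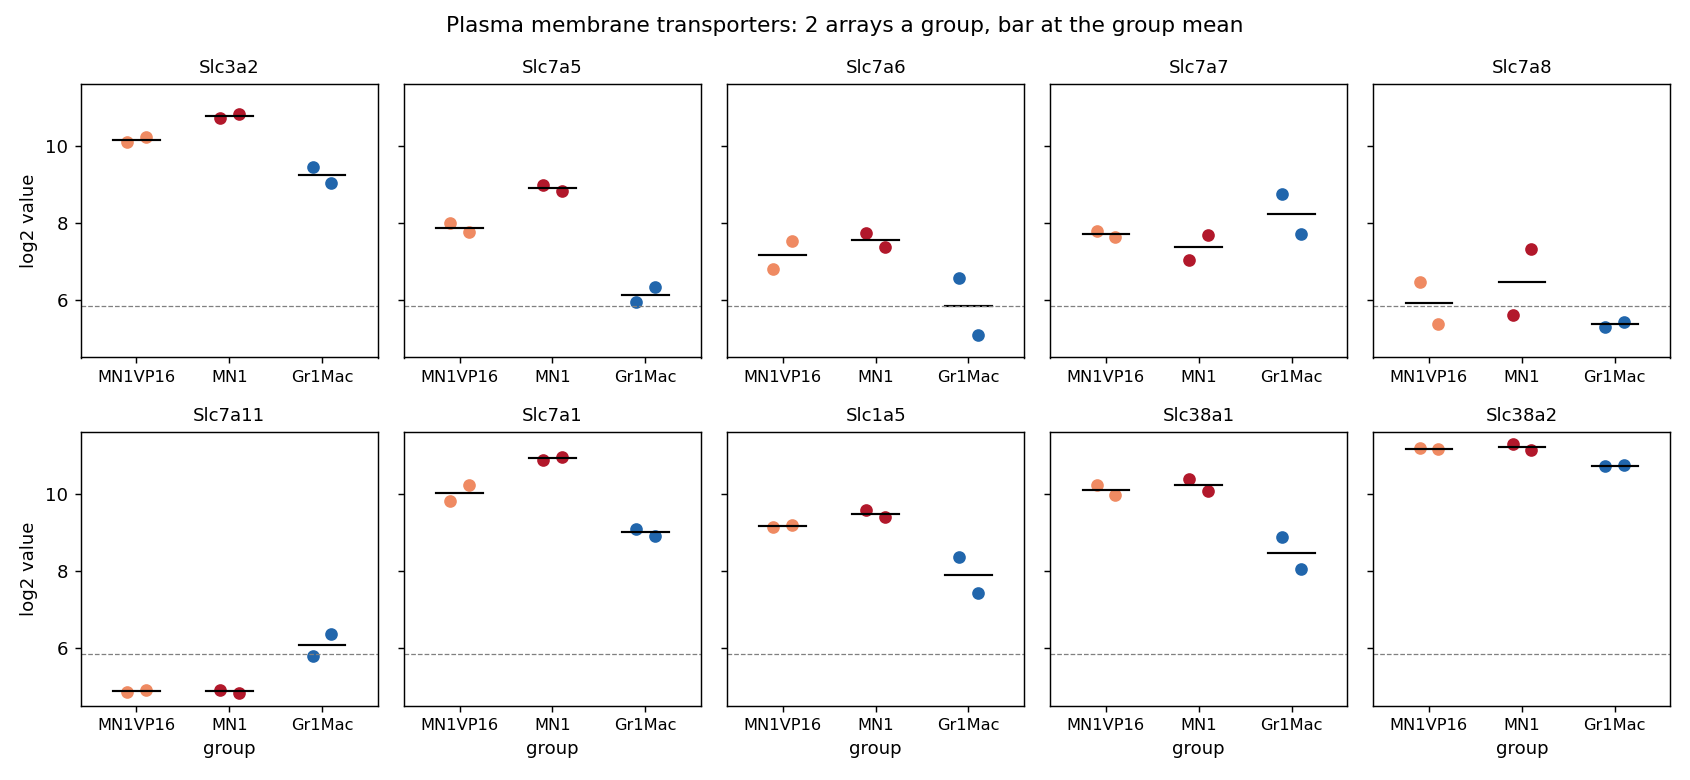
Log2 values of 10 plasma membrane transporters by group; points are arrays, bars are group means, and the dashed line is the background guide of 5.84 log2 units. Slc3a2, Slc7a5 and Slc7a1 are highest in MN1, intermediate in MN1VP16 and lowest in Gr1Mac, whereas Slc7a11 is lower in both vector groups than in Gr1Mac.

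The Slc43 family split. Beside Slc43a1, Slc43a2 (LAT4), a second facilitator for leucine, phenylalanine and methionine, lay at 10.05 and 8.90 log2 units in MN1VP16 and at 8.08 and 7.74 in MN1, against 10.07 and 9.09 in Gr1Mac. The MN1VP16 and Gr1Mac arrays overlapped, and both MN1 arrays were below them. It was 3.17-fold lower in MN1 than in Gr1Mac (95% interval 1.43 to 7.01, limma adjusted p = 0.0428), a call lost when any MN1 or Gr1Mac array was left out. The 1.57 log2 units of MN1VP16 minus MN1 were not called (limma adjusted p = 0.122). Slc43a3, which carries purine bases rather than amino acids, was not called (0.81 log2 units in MN1 minus Gr1Mac, limma adjusted p = 0.177).

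The lysosomal transporters also differed in direction. Slc38a9, the arginine sensor, lay at 7.98 and 7.60 log2 units in MN1VP16 and at 8.54 and 9.15 in MN1, against 7.97 and 7.98 in Gr1Mac. It was 1.83-fold higher in MN1 than in Gr1Mac (95% interval 1.19 to 2.81, limma adjusted p = 0.0475), a call that held under 3 of 15 alternatives and was lost without MN1 array 2 or either array of the other groups. Slc36a1 (PAT1), a proton-driven exporter of small amino acids from the lysosome, lay at 7.52 and 8.19 log2 units in MN1VP16 and at 6.73 and 6.52 in MN1, against 7.69 and 7.48 in Gr1Mac. It was 1.95-fold lower in MN1 than in Gr1Mac (95% interval 1.27 to 3.01, limma adjusted p = 0.0352), a call lost without any MN1 or Gr1Mac array, and the 1.23 log2 units of MN1VP16 minus MN1 just missed a call (limma adjusted p = 0.0578). Slc38a7, a lysosomal exporter of glutamine and asparagine, was not called, nor were Slc36a2 and Slc36a3.

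Most Slc6 genes, many of them transporters of neurotransmitters, were dim. Of 20, 13 were under the guide in all groups and 17 had no call, where 29.3% of all genes were called in MN1 minus Gr1Mac. Slc6a12, a betaine and GABA transporter, lay at 5.87 and 5.96 log2 units in MN1VP16 and at 5.52 and 5.27 in MN1, against 7.08 and 7.11 in Gr1Mac. Both vector groups were below Gr1Mac by far more than the arrays of a group differed. It was 2.26-fold lower in MN1VP16 (95% interval 1.71 to 2.99, limma adjusted p = 0.0228) and at least 2.39-fold lower in MN1 (limma adjusted p = 0.00181). The MN1VP16 arrays read only just above the background guide and the MN1 arrays under it, so the sizes of these folds cannot be compared. The MN1VP16 call was lost without any array but Gr1Mac array 1.

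Slc6a13, a GABA and taurine transporter, lay at 7.20 and 8.50 log2 units in MN1VP16 and at 7.13 and 6.21 in MN1, against 9.11 and 8.14 in Gr1Mac. It was 3.87-fold lower in MN1 than in Gr1Mac (95% interval 1.51 to 9.89, limma adjusted p = 0.0441), a call lost when any MN1 or Gr1Mac array was left out. Slc6a20a, a proline transporter, was called higher in MN1 (1.31 ± 0.22 log2 units, SE, limma adjusted p = 0.00806), but both groups lay under the guide, so no fold is given, and the call was lost without MN1 array 2. Slc6a6, the taurine transporter, was bright on every array, between 9.78 and 11.03 log2 units, and was not called (-0.84 log2 units in MN1 minus Gr1Mac, limma adjusted p = 0.0748).

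The glutamate transporters Slc1a1, Slc1a2, Slc1a3, Slc1a6 and Slc1a7, known from neurons, glia and epithelia, stayed between 3.92 and 6.59 log2 units on all arrays. Slc1a2 was called lower in MN1 than in Gr1Mac (-0.73 log2 units, limma adjusted p = 0.0261) with both means under the guide, and its 4 other probe sets, though negative, were not called. That call was lost without either MN1 array or Gr1Mac array 2. Of the opposite-strand entries, Slc7a6os was 1.81-fold higher in MN1 than in Gr1Mac (limma adjusted p = 0.0394), a call lost without any array but Gr1Mac array 1, and the other two were under the guide.

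**Figure D4:**
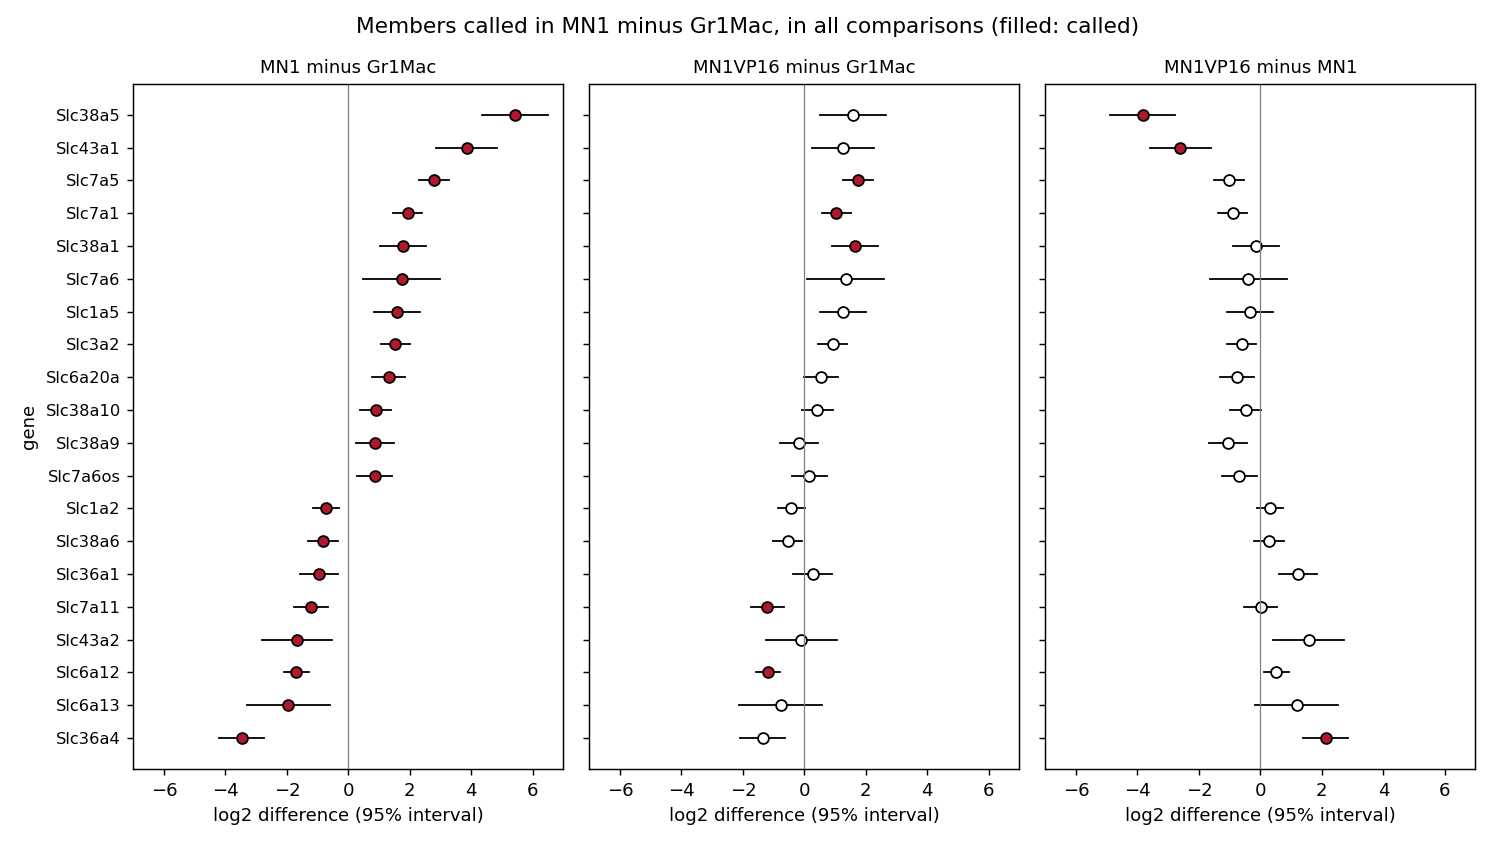
Log2 differences with 95% intervals for the 20 genes called in MN1 minus Gr1Mac, shown in each comparison; filled points were called at a limma adjusted p under 0.05. Slc38a5, Slc43a1 and Slc36a4 carry filled points in MN1VP16 minus MN1, while Slc38a1 lies near 0 there.

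The MN1VP16 mean lay between the MN1 and Gr1Mac means for 18 of the 20 genes called in MN1 minus Gr1Mac, the exceptions being Slc36a1 and Slc38a9. These comparisons share their arrays, and some means lay under the background guide, so this count is a description. The same share over all genes called there was not computed, so the count says nothing particular of the transporters. For 5 plasma membrane transporters that rose in MN1 with every group mean above the guide, MN1VP16 minus Gr1Mac came to 92.7% of MN1 minus Gr1Mac for Slc38a1, 79.3% for Slc1a5, 62.8% for Slc7a5, 59.9% for Slc3a2 and 53.5% for Slc7a1. The direct test in MN1VP16 minus MN1 called none of these 5. Left out, since a group mean lay under the guide, were Slc38a5 (29.2%), Slc43a1 (32.6%), Slc6a20a (41.9%) and Slc7a6 (77.5%). Their shares rest in part on background readings, and Slc38a5 and Slc43a1 were called lower in MN1VP16 than in MN1.

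Genes of amino acid supply and sensing gave a setting for the transporters. Among 27 measured genes of the amino acid response and its serine, glycine and proline branches, 8 rose (29.6%) and 2 fell (7.41%) in MN1 against Gr1Mac, beside 17.3% and 12.0% of all genes, with a median of 0.13 log2 units (-0.06 over all genes). The proline enzyme Aldh18a1 was 15.8-fold, the serine-glycine enzyme Shmt2 11.8-fold, the serine enzymes Psat1 10.8-fold and Phgdh 6.07-fold higher, and the fallers were the glutathione-degrading Chac1 (4.26-fold) and the stress kinase Eif2ak3 (2.08-fold). In MN1VP16 against Gr1Mac, 4 rose (Shmt2 8.13-fold, Aldh18a1 6.42-fold, Psat1 4.33-fold and Phgdh 3.06-fold) and 0 fell, with a median of 0.08 (0.00 over all genes). The risers were 14.8% of the list, beside 3.66% of all genes that rose there and 2.11% that fell. The asparagine synthetase Asns, a standard target of Atf4, was not called, at 7.86 and 9.95 log2 units in MN1VP16 and 10.12 and 9.78 in MN1, against 10.03 and 9.53 in Gr1Mac.

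Of 31 genes of amino acid sensing by mTORC1, 8 rose (25.8%) and 4 fell (12.9%) in MN1 against Gr1Mac, beside 17.3% and 12.0% of all genes. The scaffold subunit Lamtor3 was 4.08-fold, the stress sensor Sesn1 3.37-fold, Nprl3 2.80-fold and Seh1l 2.62-fold higher, and Lamtor4 was 3.73-fold, Mlst8 2.43-fold and Lamtor1 1.74-fold lower, with Rragd at least 1.39-fold lower. In MN1VP16 against Gr1Mac, Lamtor3 rose 6.34-fold and Rragd fell by at least 1.39-fold (3.23% each, beside 3.66% and 2.11% of all genes). In MN1VP16 against MN1, Sesn1 fell 2.15-fold (3.23%, beside 2.70% of all genes). Among 11 transporters of other families, 1 rose (9.09%) and 0 fell in MN1 against Gr1Mac, beside 17.3% and 12.0% of all genes. The riser was Slc16a10, which carries aromatic amino acids (4.60-fold, limma adjusted p = 0.0112).

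Of 16 genes of glutathione synthesis and the Nrf2 response, 3 rose (18.8%) and 4 fell (25%) in MN1 against Gr1Mac. The share of risers was near the 17.3% of all genes, and 12.0% of all genes fell. The risers were the synthesis enzymes Gclc (6.12-fold) and Gss (2.41-fold) and Nqo1 (at least 1.59-fold), opposite in direction to Slc7a11, and the fallers were Gsr (5.25-fold), Hmox1 (4.30-fold), Ggt5 (2.40-fold) and Nfe2l2 (1.71-fold). In MN1VP16 against Gr1Mac, Ggt5 and Nfe2l2 fell (12.5%, beside 2.11% of all genes) and 0 rose. In MN1VP16 against MN1, Nqo1 fell (6.25%, beside 2.70% of all genes). Of 22 genes of glutamine, branched-chain amino acid and arginine use, 4 rose (18.2%) and 3 fell (13.6%) in MN1. These shares were near those of all genes (17.3% and 12.0%), so the counts say nothing particular of the list. The polyamine enzymes Srm and Odc1 were 14.8-fold and 10.6-fold, Bckdhb at least 5.05-fold and Oat 2.27-fold higher. Arg2, which cleaves the arginine that Slc7a1 imports, was 13.8-fold, Sat1 4.73-fold and Got1 3.03-fold lower. In MN1VP16 against Gr1Mac, Srm (6.83-fold) and Odc1 (4.38-fold) rose, and Arg2 (7.32-fold) and Got1 (3.14-fold) fell. That is 9.09% of the list in each direction, beside 3.66% and 2.11% of all genes.

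The remaining marker lists moved as follows in MN1 against Gr1Mac, where 17.3% of all genes rose and 12.0% fell. Of 10 stem and progenitor markers 8 rose, of 10 markers of mast cells and other granulated cells 5 rose, and 0 of either list fell. Of 11 neutrophil markers 7 fell and 0 rose. Among 9 markers for B cells there was 1 riser and 1 faller (11.1% each), and likewise among 8 for T and NK cells (12.5% each). These lymphocyte shares were not far from those of all genes. Among 9 markers for megakaryocytes, 4 rose and 1 fell. In MN1VP16 against Gr1Mac, 5 of the stem and progenitor markers rose, and 0 of the 11 neutrophil markers were called by limma. There 2 of the 9 B cell markers rose (22.2%, beside 3.66% of all genes) and 0 fell. The part of these in the transporter differences was not tested.

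Leaving out an array changed the counts. In MN1 minus Gr1Mac they were 6 higher and 2 lower without MN1 array 2, 9 and 3 without MN1 array 1, 11 and 4 without Gr1Mac array 1, and 8 and 5 without Gr1Mac array 2. The array's bright control features set MN1VP16 array 1 and both MN1 arrays apart from the other 3, and with this split as a block the counts were 3 higher (Slc38a5, Slc7a1 and Slc7a5) and 2 lower (Slc36a4 and Slc6a12). In that fit MN1 and Gr1Mac, which lie on opposite sides of the split, are compared through MN1VP16 alone. In MN1VP16 minus MN1, Slc38a5 lost its call without MN1 array 2 (limma adjusted p = 0.149), Slc36a4 without MN1 array 1 (0.0519), MN1 array 2 (0.198) or MN1VP16 array 1 (0.0560), and Slc43a1 without any array but MN1 array 1 (between 0.0508 and 0.193).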

How the data were processed

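RNA of the 6 samples was hybridised to Affymetrix arrays. The authors deposited log2 expression values per probe set, made with RMA per the submitters' processing notes (version not given in the sources used here). This method compresses differences of dim genes and normalises away changes in total RNA. Of 45037 probe sets, 34945 named exactly 1 gene in GEO's platform annotation and gave 18193 genes, each read by its brightest probe set. No scanner intensities or detection calls were used.

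For all 6 arrays together, limma 3.58.1 (lmFit and eBayes, R 4.3.3) was run with group as the only term (3 residual and 3.03 prior degrees of freedom), after a test on simulated data. The p-values were Benjamini-Hochberg adjusted over 18193 genes in each comparison. They reflect only how far arrays of a group differ, possibly for technical reasons, and the number of arrays limits the precision. With 2 arrays a group, an exact permutation test could not reach 0.05.

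Members, lists and the background guide were chosen with earlier results of these data known. Named in full were Slc3a2, its light chains, the main glutamine transporters, Slc38a9 and, per comparison and direction, the 6 called members with the largest difference, and the other called members more briefly. Of each pathway list, up to 4 called genes a direction were named. Alternatives covered left-out arrays, blocks, filters, centring, the prior and probe set choice. Replicate numbers did not pair the arrays (correlation of deviations -0.05, -0.05 and 0.08).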

Additional observations from a re-analysis of the deposited data

How the results depend on the processing

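All 28 calls (20, 5 and 3 in the 3 comparisons) kept their direction under each of the 15 alternatives that tested the gene, and 5 kept the call under all 15, namely Slc36a4, Slc38a5, Slc6a12, Slc7a1 and Slc7a5 in MN1 minus Gr1Mac. With single arrays left out, transporters called in MN1 minus Gr1Mac numbered 6 to 11 higher and 2 to 8 lower. In MN1VP16 minus Gr1Mac they numbered 0 to 4 and 0 to 2, and in MN1VP16 minus MN1 0 to 1 and 0 to 2. With the control feature split as a block the counts were 3 higher and 2 lower in MN1 minus Gr1Mac, 1 and 0 in MN1VP16 minus Gr1Mac, and 1 and 1 in MN1VP16 minus MN1. With the sex pattern as a block they were 8 and 5, 4 and 2, and 0 and 0. In MN1VP16 minus MN1, limma then called 0 of all 18193 genes. There 2501 genes and 10 of the transporters had an unadjusted limma p under 0.05. In that fit MN1VP16 and MN1, which lie on opposite sides of the sex pattern, are compared through Gr1Mac alone. With only the 4 arrays compared the counts were 9 and 8, 1 and 0, and 1 and 1. The replicate block gave 10 and 6, 2 and 2, and 2 and 2, although the numbers were not shown to pair the arrays. The mean of a gene's probe sets gave 11 and 7, 4 and 1, and 1 and 3. Centring on medians and the intensity trend each gave 2 higher in MN1VP16 minus Gr1Mac, and leaving out the dimmest 40% of genes 11 and 6, 4 and 2, and 1 and 3. Blocks and left-out arrays leave fewer residual degrees of freedom; otherwise the cause was not tested.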

Other observations

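Probe sets that were not the brightest of their gene gave further values. A second probe set of Slc7a4, a relative of the arginine transporters, lay at 5.36 and 4.84 log2 units in MN1VP16 and 6.54 and 6.37 in MN1, against 4.71 and 5.02 in Gr1Mac. Limma called it higher in MN1 than in Gr1Mac and lower in MN1VP16 than in MN1 (adjusted p = 0.0396), while the brightest probe set of that gene was called in no comparison. For Slc6a6, the taurine transporter, a probe set at 10.07 and 9.14 log2 units in MN1VP16 and 9.31 and 8.92 in MN1, against 10.66 and 10.52 in Gr1Mac, was called lower in MN1 than in Gr1Mac. For Slc38a2 a dim probe set was called lower in MN1 than in Gr1Mac (-0.63 log2 units, limma adjusted p = 0.0327), opposite in sign to the brightest one. Of 26 further probe sets of the 20 genes called in MN1 minus Gr1Mac, 23 had the same sign, 4 of them called, and 0 were called in the opposite direction.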
